A study of Drosophila melanogaster with 4 samples.

Results

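Isolated H3K27me1 clusters are narrow enriched regions that stand alone along the chromosome arms of the fruit fly Drosophila melanogaster. They were taken from the authors' list for the set of both ChIP replicates, on 2L, 2R, 3L, 3R, X and 4, as clusters narrower than 10000 bp with at least 10000 bp free of any other cluster of that list on both sides. The first and the last cluster of each sequence were left out of the members. Of the 9662 clusters of the list, 9420 lay on these 6 arms and 8826 of those were narrower than 10000 bp, and 436 of the 8826 (4.94%) were isolated. The other 8390 clusters under 10000 bp, first and last clusters of that width included, serve as the background. The members were chosen by cluster start, end and width in the replicate-set list, so their widths and gaps are descriptions.

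The libraries came from nuclei of the heads of wild-type Oregon-R flies labelled as mixed adults, and comprise 2 ChIP replicates made with a Millipore antibody against H3K27me1 and 2 Input libraries of the same strain, stage and tissue. All 4 libraries share the genotype and there is no second condition. The cages ran on an adult cycle of 22 days, and the flies of a library are given no single age. Heads were collected from whole adults with sieves, so each library pools many animals and all cell types of the head. The labels are silent on whether each replicate is its own collection, and the spread between them may be technical. Each library was cross-linked with formaldehyde and sonicated, and the antibody was left on the chromatin for 15 hours.

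H3K27me1 is the histone H3 tail with a single methyl group on lysine 27. In flies the Polycomb enzyme E(z), the catalytic subunit of PRC2, places methyl groups on this lysine, and the demethylase Utx acts on the trimethylated form. The trimethylated form is the known mark of Polycomb-silenced genes, which in flies often spans broad domains. The monomethylated form is a lower state of the same residue.

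The comparison asked how a cluster that stands alone differs in width, score and presence in the replicates from a narrow cluster with close neighbours. No p-value is given for it, because the 2 kinds of cluster were separated on the same list and clusters of 1 library are not replicates of a condition. Intervals on shares are exact 95% binomial intervals and cover counting only. Read depth is not part of the lists and is unknown. Scores are values that the authors gave to the clusters without a stated unit, so they are compared as differences only. Coordinates are those of FlyBase release 5 throughout. The lists differ in their width floor. Neither replicate list holds a cluster of 1300 bp or less, whereas the replicate-set list begins at 1001 bp, so a set cluster up to 1300 bp wide can be overlapped only by a replicate cluster wider than itself.

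Isolated clusters were short and made up a minor part of the marked sequence. Together they spanned 1068 kb, which was 2.95% of the replicate-set cluster length on the 6 arms and 0.887% of the arms themselves. Their median width was 1694 bp (1001 bp to 8969 bp), against 2329 bp (1001 bp to 9997 bp) for the other clusters under 10000 bp. Their median score was 0.496 (0.242 to 2.22), against 0.484 (0.105 to 3.22) for the others. The difference in the medians was -635 bp in width and 0.0125 in score. The score difference did not exceed the SD of 0.0201 between the replicate lists, and it turned to -0.0215 when the lowest 25% of scores were left out before gaps were measured. The share of clusters that were isolated decreased with width, at 9.24% of those up to 1300 bp wide, 4.71% of those over 1500 bp and up to 2000 bp, and 3.10% of those over 5000 bp.

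Each isolated cluster stood in a wide empty stretch. The smaller of its 2 gaps had a median of 17122 bp and reached 171047 bp, and the larger gap had a median of 40692 bp and reached 371951 bp. For the other clusters under 10000 bp the smaller gap had a median of 847 bp. The gap limit was close to some clusters on both sides. On X, the clusters from 5936204 to 5944226 and from 5954242 to 5955596 were each other's neighbours across 10015 bp and both were members, and on 3L a member from 17710124 to 17711890 had a smaller gap of 10041 bp. Just outside the limit, a 3L cluster from 10613608 to 10614838 had a smaller gap of 9979 bp, and 2 X clusters, from 11124820 to 11125926 and from 11135888 to 11137326, faced each other across 9961 bp. The scores of these 3 members were 0.911, 0.446 and 0.454, and those of the 3 clusters outside the limit were 0.412, 0.523 and 0.512 in the order named. The width limit cut through fewer clusters. The widest members measured 8969 bp, 8907 bp and 8843 bp, and the next clusters by width with both gaps over the limit measured 10129 bp on 2R, 10563 bp on 3L and 11227 bp on 2L. Only 16 of the 594 clusters of 10000 bp or more (2.69%) had both gaps over the limit.

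**Figure D1:**
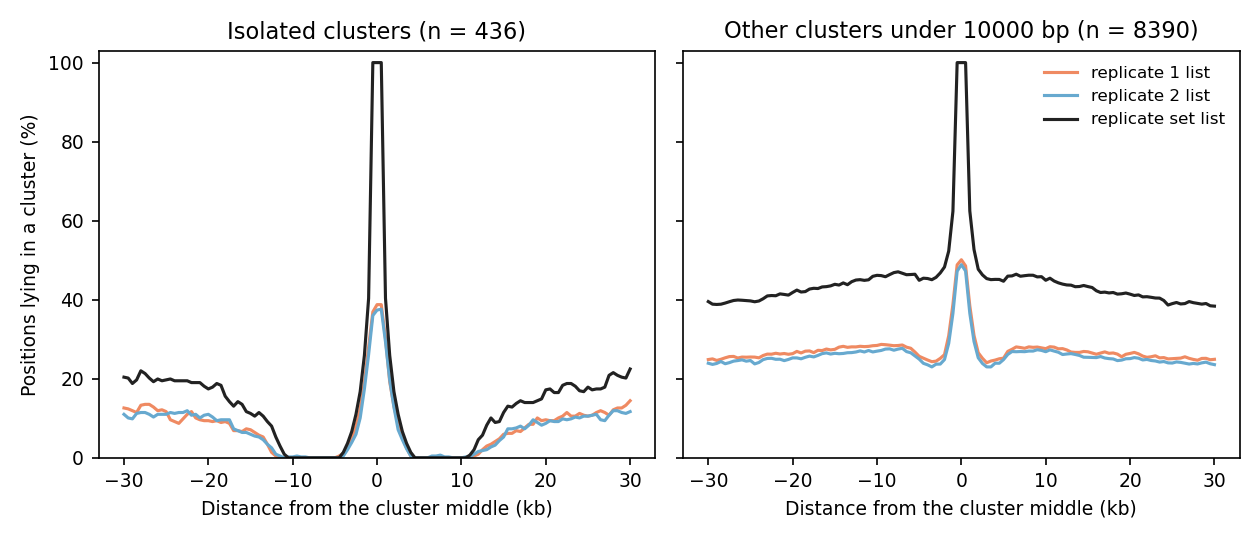
Share of positions that lay in a cluster of each list, in percent, plotted by distance from the cluster middle in kb, for the 436 isolated clusters on the left and the 8390 other clusters under 10000 bp on the right. Around isolated clusters all 3 lists fall to 0% or close to it, and at 30 kb on the right side the replicate-set list is back at 22.5%, against 38.4% around the other clusters.

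Cluster cover was also lower beyond the 10 kb that the rule empties. The same starts and ends chose the members, and their smaller gap had a median of 17122 bp. The lower cover is thus in part fixed by the rule and is a description only. Between 10 kb and 100 kb on each side, clusters filled a median of 21.7% of the sequence around isolated clusters (middle 50% of clusters, 13.6% to 33.7%), against 35.96% (25.8% to 46.5%) around the others. The nearest domain of 10000 bp or more lay at a median of 116 kb from an isolated cluster and at 53.6 kb from the others, a distance that the rule keeps above 10 kb for isolated clusters only. Next to 33 of the 436 isolated clusters (7.57%) the neighbouring cluster was such a domain. Such domains were 594 of the 9420 set clusters on the arms. The count was not made for the other clusters under 10000 bp, so whether 7.57% is high or low is not known. Of the members, 219 (50.2%) had no isolated neighbour, 180 had an isolated neighbour on 1 side and 37 on both sides, and 27 runs held 3 or more isolated clusters in a row. A neighbour of a member meets the gap limit on 1 side by the rule, and these counts have no counterpart among the other clusters. The longest run was on 2R, with 6 clusters between 15616968 and 15891020 (274 kb). Runs of 5 followed on 3L, between 24022534 and 24304652 (282 kb), and on X, between 10868590 and 10989460 (121 kb).

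The most secluded members differed widely in width and in what the replicates held there. On 2L the cluster with the largest smaller gap ran from 21932006 to 21933492, with 171 kb free on the left and 189 kb on the right. It was 1487 bp wide, scored 0.459, and neither replicate list held a cluster there. On 3R the cluster from 8041796 to 8047648 lay 122 kb and 127 kb from its neighbours. It scored 0.777 in the replicate-set list, 0.776 in replicate 1 and 0.839 in replicate 2, and the replicates covered 97.4% and 88.1% of it. On X the cluster from 9672940 to 9677368 lay 99.6 kb and 227 kb from its neighbours, and scored 0.777, with 0.847 in replicate 1 and 0.927 in replicate 2. The most secluded clusters of 3R and X were thus present in both replicates, and that of 2L in neither. On 3L the cluster from 24224390 to 24226176, with gaps of 101 kb and 77.4 kb, scored 0.382 in the set list, 0.592 in replicate 1 and 0.543 in replicate 2. On 2R the cluster from 15888332 to 15891020, with gaps of 76.4 kb and 104 kb, scored 0.425 in the set list and 0.586 in replicate 1 and was not found in replicate 2.

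Fewer isolated clusters than others overlapped a replicate cluster, in part among widths that the replicate lists do not hold. Of the 436 isolated clusters, 174 (39.9%, 35.3% to 44.7%) overlapped a replicate 1 cluster by at least 1 bp, where 53.3% of all 8826 clusters under 10000 bp did, and 54.0% of the others. In replicate 2 the count was 172 (39.4%, 34.8% to 44.2%), with 52.5% of all clusters under 10000 bp and 53.1% of the others. The mean share over the replicates was 39.7% ± 0.324 for isolated clusters and 53.6% ± 0.598 for the others (SD, n = 2 each). The difference was -14.1 percentage points in replicate 1 and -13.7 in replicate 2. Clusters up to 1300 bp wide, under the floor of the replicate lists, made up 34.6% of the isolated clusters and 17.7% of the others. Among clusters wider than 1300 bp, replicate 1 overlapped 170 of 285 isolated clusters (59.6%, 53.7% to 65.4%) and 64.8% (63.6% to 65.9%) of the others. Replicate 2 overlapped 171 of these 285 (60.0%, 54.1% to 65.7%) and 63.6% (62.4% to 64.7%) of the others. The mean difference was then -4.36 percentage points, and the intervals of the 2 kinds of cluster overlapped. Both replicates held 139 isolated clusters (31.9%, against 42.3% of all clusters under 10000 bp). Replicate 1 alone held 35 (8.03%, against 11.0%), and replicate 2 alone held 33 (7.57%, against 10.2%). Neither held the remaining 229 (52.5%, against 36.5%). The replicate-set list comes from the same libraries, so overlap with a replicate is no independent check of a cluster.

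The share in a replicate varied with width. It was near 0 under the floor of the replicate lists, where only a wider replicate cluster can overlap, and still low just above it. How far the floor sets these shares was not tested. Among the isolated clusters up to 1300 bp wide, 4 of 151 overlapped replicate 1 and 1 of 151 overlapped replicate 2, and among the others of that width 3.71% and 4.59% did. Over 1300 bp and up to 1500 bp the shares were 5.26% and 7.89% for isolated clusters, against 9.98% and 12.6% for the others. Over 1500 bp and up to 2000 bp the shares were 21.1% and 23.9% for isolated clusters, against 26.9% and 28.8% for the others. Over 2000 bp and up to 3000 bp they were 74.6% (62.1% to 84.7%) and 73.0% (60.3% to 83.4%) for isolated clusters, against 64.7% (62.3% to 67.1%) and 61.9% (59.4% to 64.3%) for the others. Over 3000 bp and up to 5000 bp they were 89.2% (79.1% to 95.6%) in each replicate for isolated clusters, against 87.7% and 83.2% for the others. That interval held both values of the others. Above 5000 bp all 48 isolated clusters overlapped replicate 1 and 47 of them overlapped replicate 2, and 98.3% and 98.1% of the others did. Isolated clusters thus had the lower shares up to 2000 bp and the higher ones over 2000 bp and up to 5000 bp. When the width classes of the other clusters were given the weights of the isolated clusters, the others overlapped replicate 1 in 39.8% of cases and replicate 2 in 39.5%, against 39.9% and 39.4% for isolated clusters. The mean difference was then 0.0265 percentage points, with an SD of 0.122 between the replicates. This mean sums classes that differed in both directions and does not show that the classes were alike.

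**Figure D2:**
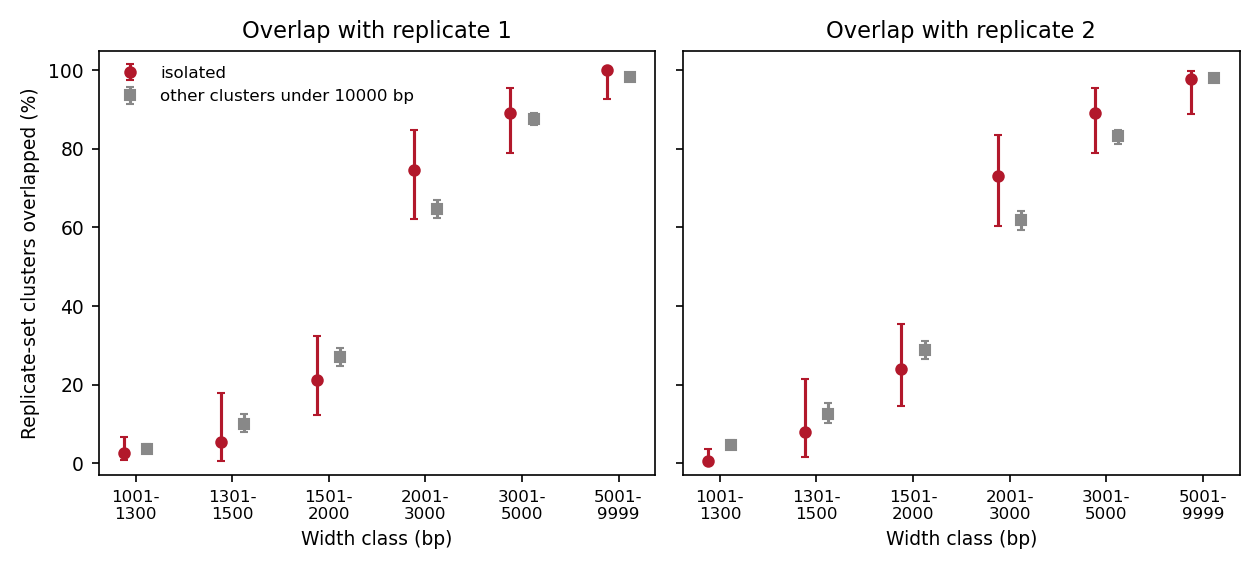
Share of replicate-set clusters overlapped by a replicate 1 cluster (left) and a replicate 2 cluster (right), in percent, by width class in bp, for isolated clusters (circles) and other clusters under 10000 bp (squares), with exact 95% binomial intervals. Both kinds of cluster climb from under 5% in the narrowest class, which lies below the narrowest replicate cluster, to over 97% in the widest.

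On the large autosomal arms (2L, 2R, 3L and 3R) isolated clusters overlapped replicate 1 in 41.7% and replicate 2 in 41.7% of cases, against 40.8% and 42.7% for the others at the same widths. On X they overlapped replicate 1 in 33.3% and replicate 2 in 31.25% of cases, against 35.2% and 27.1% for the others at the same widths. Without the reweighting, the X shares of the other clusters were 46.6% in replicate 1 and 35.9% in replicate 2. In replicate 2 the isolated X clusters were thus below the others at their own widths and above them at equal widths. The exact interval on the isolated X share in replicate 2, 22.2% to 41.5%, held both values of the others. The counts therefore do not settle on which side of the others it lay.

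**Figure D3:**
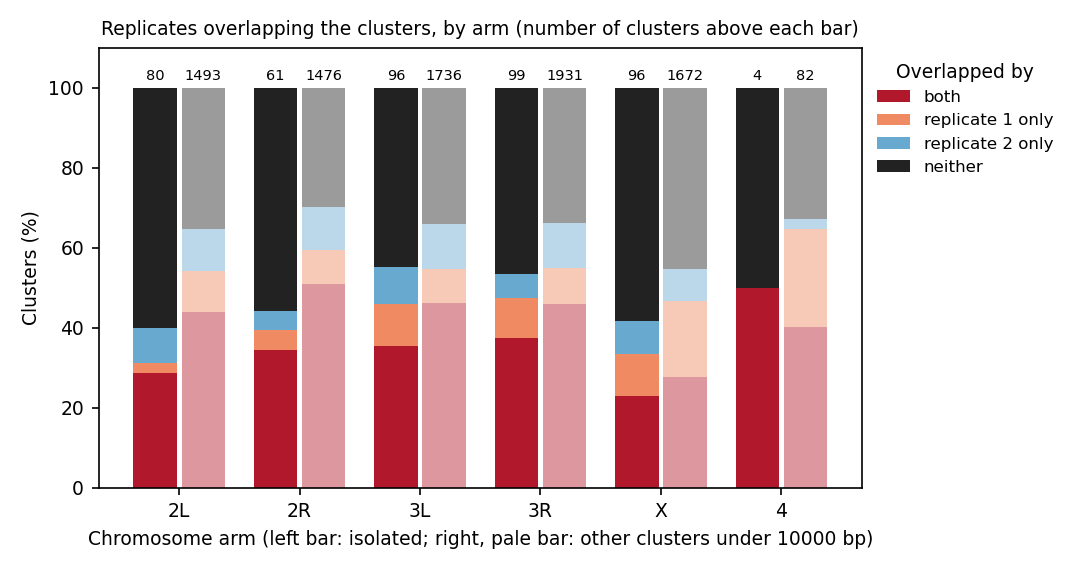
Share of clusters overlapped by both replicates, by 1 of them or by neither, in percent, for each arm, with isolated clusters in the left bar and other clusters under 10000 bp in the right, pale bar of each pair. The share in neither replicate is higher for isolated clusters on all 6 arms, with only 4 of them on chromosome 4.

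Members found in both replicates were at the median broader and higher in score than the rest, although the 4 highest scores were in neither. The 139 members in both had a median width of 4097 bp (1787 bp to 8969 bp) and a median set score of 0.700. For the 229 in neither, the medians were 1181 bp (1001 bp to 4027 bp) in width and 0.461 in score. The 35 in replicate 1 alone and the 33 in replicate 2 alone had median widths of 1991 bp and 1901 bp and median scores of 0.409 and 0.445. The other clusters under 10000 bp showed the same contrast, with medians of 4303 bp and 0.645 in both and 1349 bp and 0.426 in neither. The share in a replicate varied little with how secluded a member was. In 4 classes of increasing smaller gap, with 110, 112, 108 and 106 members, replicate 1 held 39.1%, 39.3%, 38.9% and 42.5% of the members, and replicate 2 held 38.2%, 39.3%, 38.9% and 41.5%. Spearman's rho between the smaller gap and the score was 0.0316 across the 436 members, which share the same libraries.

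The score was lowest at intermediate widths. Isolated clusters up to 1300 bp wide had a median score of 0.476, those over 1500 bp and up to 2000 bp had 0.417, and those over 5000 bp had 0.812. Spearman's rho between width and score was 0.420 over all 436 members and 0.719 over the 247 wider than 1500 bp, against 0.623 and 0.718 for the other clusters. Within each of the 6 width classes the median score of isolated clusters was above that of the others, by 0.0381 on average when classes were weighted by the number of isolated clusters. The median scores were 0.812 against 0.749 over 5000 bp, and 0.429 against 0.393 over 1300 bp and up to 1500 bp. The weighted mean was 0.0365 on the large autosomal arms and 0.0633 on X. The SD between replicates of the unweighted score difference, with the rule applied to each replicate list, was 0.0201. No SD between replicates was computed for the weighted means.

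**Figure D4:**
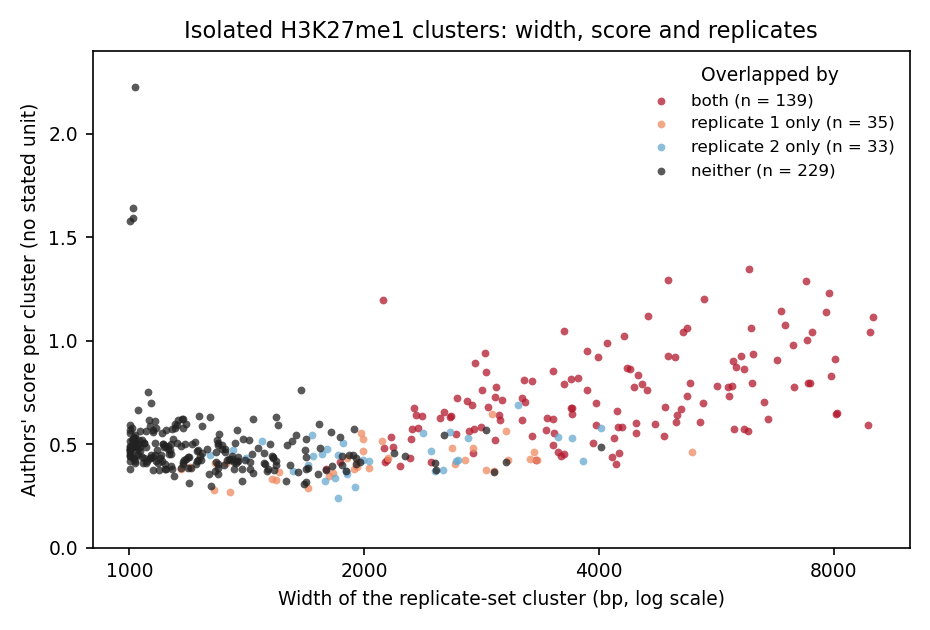
Authors' score per cluster, which has no stated unit, plotted against cluster width in bp on a log scale for the 436 isolated clusters, coloured by the replicates that overlap them. Members in both replicates lie to the right with scores up to 1.35, and the 4 highest scores, from 1.58 to 2.22, belong to clusters close to 1000 bp wide, narrower than any replicate cluster and overlapped by none.

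The highest scores of all belonged to the narrowest members. The 4 top-scoring isolated clusters were 1001 bp to 1015 bp wide and were overlapped by no replicate cluster. At their own width they lay under the floor of the replicate lists. They ran on X from 22013792 to 22014806 with a score of 2.22, on 3L from 14714214 to 14715222 with 1.64, on 2R from 15616968 to 15617978 with 1.59 and on 3R from 21658356 to 21659356 with 1.58. The 151 members up to 1300 bp wide had a median score of 0.476, so these 4 stood far above members of like width. The 2R and 3L scores, 1.594032 and 1.638426, had the same decimals as narrow members that scored 0.594032 and 0.638426. The X score, 2.223389, had the same decimals as other clusters that scored 1.223389 and 3.223389. A match for the 3R score was not looked for, and why these decimals recur was not tested. Of all 436 members, 23 scored over 1 (5.28%, against 3.73% of all clusters under 10000 bp), and 19 of these were in both replicates and 4 in neither. Among the other clusters 306 scored over 1, with 293 in both replicates, 12 in neither and 1 in a single replicate. The narrowest members, 12 clusters of 1001 bp, also lay under the floor of the replicate lists and overlapped no cluster of either, and apart from the 3R cluster above they scored 0.419 to 0.594.

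The next 6 members by score were held by both replicates. On 3R the cluster from 17307442 to 17313662 (6221 bp) scored 1.35 in the set list, 1.34 in replicate 1 and 1.42 in replicate 2. Also on 3R, the cluster from 14233314 to 14238212 scored 1.29, with 1.39 and 1.37 in the replicates. The third 3R cluster of this rank, from 26418112 to 26426002, scored 1.23, with 1.35 and 1.19. On all 3 the replicates covered at least 83.5% of the cluster. On 2L the cluster from 6853912 to 6861276 scored 1.29, with 1.47 in replicate 1 and 1.21 in replicate 2. On X the cluster from 9904018 to 9909470 scored 1.20, with 1.21 and 1.33, and the one from 17688312 to 17690426, only 2115 bp wide, scored 1.20, with 1.43 and 1.40. The widest member, on 3L from 7920140 to 7929108, scored 1.12, with 1.21 and 1.09 in the replicates.

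Where both replicates held a member, they gave it a like score. In 119 isolated clusters a single cluster of each replicate lay in the member, with median scores of 0.786 in replicate 1 and 0.789 in replicate 2 (mean 0.787 ± 0.0018, SD, n = 2). The other clusters under 10000 bp gave 2898 such matches with medians of 0.757 and 0.754 (mean 0.756 ± 0.00244, SD, n = 2). Replicate 2 minus replicate 1 had a median of 0.00358 with an SD of 0.110 between isolated clusters, and replicate 2 was higher in 60 of 119. Pearson's r between the replicate scores was 0.872 and Spearman's rho 0.837 across these 119 clusters, which come from the same pair of libraries. For the other clusters r was 0.845 and rho 0.824. The extremes were 0.310, on X from 678664 to 682272 (0.733 in replicate 1 and 1.04 in replicate 2), and -0.291, on 2L from 12034060 to 12038438 (1.07 in replicate 1 and 0.777 in replicate 2). Next to these came 0.283 on X from 3563078 to 3566028 and 0.276 on 2R from 8735240 to 8738654, and in the other direction -0.268 on 2L from 6853912 to 6861276 and -0.212 on 3L from 19678716 to 19681014.

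**Figure D5:**
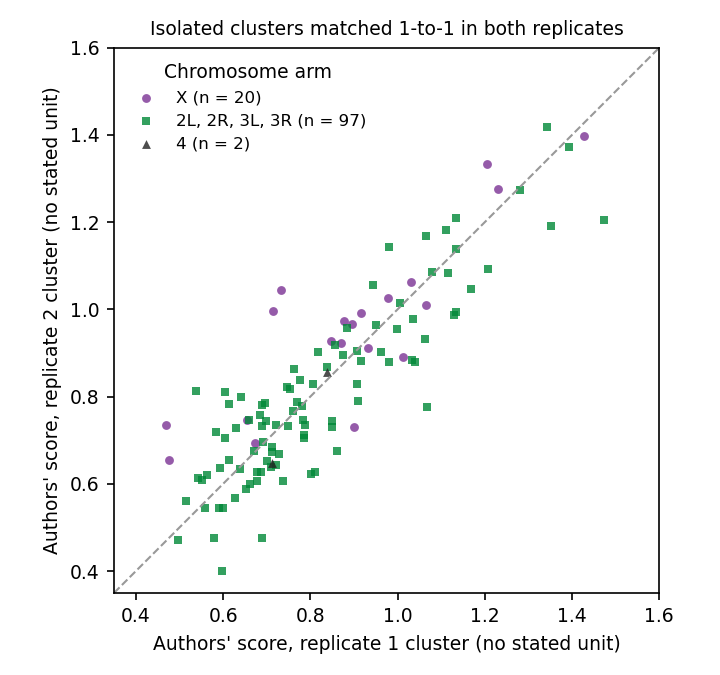
Authors' score in replicate 2 against the score in replicate 1, neither with a stated unit, for the 119 isolated clusters matched 1-to-1 in both replicates, by chromosome class; the dashed line marks equal scores. Replicate 2 is higher in 15 of 20 X clusters and in 44 of 97 clusters of the large autosomal arms.

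The 20 X members matched 1-to-1 in both replicates leaned towards replicate 2 in score. Their matched scores had medians of 0.899 in replicate 1 and 0.970 in replicate 2, with a median difference of 0.0611 and an SD of 0.124 between clusters. On the large autosomal arms the medians were 0.769 and 0.777 and the median difference was -0.0128 with an SD of 0.102. The other X clusters leaned the same way in matched score, with medians of 0.810 and 0.842 and a median difference of 0.0242 over 344 matches. Presence on X did not lean that way. Of the 96 X members, 32 overlapped replicate 1 and 30 overlapped replicate 2. Of the 1672 other X clusters, 315 were in replicate 1 alone and 137 in replicate 2 alone. None of these differences was tested.

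The replicate-set list drew the matched members wider and scored them lower than the replicates did. The median width of the 119 was 3689 bp in the set list, 3059 bp in replicate 1 and 3111 bp in replicate 2. The set cluster was wider than both replicate clusters in 110 of 119 members and its score was below both replicate scores in 96. The other clusters under 10000 bp did much the same, with 2704 wider and 2338 lower of 2898 matches. A replicate 1 cluster began a median of 131 bp inside the set cluster, and a replicate 2 cluster began 190 bp inside it. Over all 436 members, replicate 1 covered 55.0% and replicate 2 covered 51.7% of the length (mean 53.4% ± 2.34, SD, n = 2). In the other clusters under 10000 bp the covered share of the length was 59.3% and 56.6% (57.9% ± 1.90, SD, n = 2).

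The flanks of the members were nearly empty in the replicates too. Since 99.8% of the replicate 1 clusters and 99.7% of the replicate 2 clusters on the arms overlapped a set cluster, and the set flanks are empty by the rule, this was largely fixed by the rule. A replicate 1 cluster that missed the member lay within 10000 bp of it in 1 of 436 cases, and a replicate 2 cluster did in 7. Of the members with a single replicate 1 cluster, 155 of 157 had gaps of at least 10000 bp on both sides in that list too, and in replicate 2 it was 160 of 161. The reverse did not hold. The same limits applied to the replicate 1 list gave 601 isolated clusters, of which 155 (25.8%) lay on an isolated set cluster, 437 on a set cluster under 10000 bp that was not isolated, 7 on a broader domain and 2 outside the set list. Replicate 2 gave 631, with 160 (25.4%), 459, 6 and 6 in the same places. Most clusters that stood alone in a replicate therefore had close company in the set list, which holds more clusters.

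Clusters isolated in a replicate list were narrower than their neighbours there as well. Their mean number was 616 ± 21.2 (SD, n = 2), or 9.89% and 10.1% of the clusters under 10000 bp. Their median width was 2203 bp in replicate 1 and 2069 bp in replicate 2, against 2646 bp and 2560 bp for the other clusters under 10000 bp. The difference in median width averaged -467 bp ± 33.9 (SD, n = 2). Their median scores were 0.708 and 0.730, against 0.710 and 0.704, a mean difference of 0.0123 ± 0.0201 (SD, n = 2) that differed in sign between the replicates and did not exceed their spread. Of the clusters isolated in replicate 1, 409 (68.1%) overlapped a replicate 2 cluster, against 81.0% of the others, and 276 (45.9%) overlapped a cluster isolated in replicate 2. In the other direction it was 435 of 631 (68.9%), against 83.2% of the others. These shares were not compared at equal width, and the isolated clusters were the narrower kind.

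Isolated clusters were spread over all arms. Their number was 80 on 2L, 61 on 2R, 96 on 3L, 99 on 3R, 96 on X and 4 on chromosome 4. Per Mb this was 4.28 on X, 3.91 on 3L, 3.55 on 3R, 3.48 on 2L, 2.96 on 4 and 2.88 on 2R. Isolated clusters formed 5.43% (4.42% to 6.59%) of the X clusters under 10000 bp and 4.82% (4.33% to 5.35%) of those of the large autosomal arms, with overlapping intervals. The lowest arm was 2R at 3.97% (3.05% to 5.07%), and its interval overlaps those of the other arms. Median widths ran from 1367 bp on 2L to 1947 bp on 3R among these arms, against 2337 bp and 2423 bp for the other clusters of the same arms. The median score was 0.570 on X and between 0.464 and 0.495 on the large autosomal arms. The other clusters had 0.553 on X and 0.457 to 0.470 on those arms.

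Along the arms no part held most of them. With each of the 5 large arms cut into 5 equal parts, counted from the centromere end, 83, 82, 97, 82 and 88 clusters were isolated, or 5.27%, 4.68%, 5.27%, 4.58% and 4.93% of the clusters under 10000 bp there. Within 2 Mb of the centromere end the share was 6.46% (4.49% to 8.95%), against 4.85% (4.39% to 5.34%) in the rest, with overlapping intervals. Those 33 proximal members overlapped replicate 1 in 33.3% and replicate 2 in 42.4% of cases, against 40.4% and 39.1% of the 399 members in the rest. The overlap shares of the other proximal clusters were not computed. In the 117 full blocks of 1 Mb the count of isolated clusters had a median of 3 and ran from 0, in 4 blocks, to 8.

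Chromosome 4, the small and largely heterochromatic dot chromosome, held 4 members, and both replicates held 2 of them. The cluster from 802304 to 808232 (5929 bp) lay 86.1 kb and 68.5 kb from its neighbours and scored 0.782, with 0.839 in replicate 1 and 0.856 in replicate 2. The cluster from 971996 to 978572 scored 0.620, with 0.713 and 0.647. The pair from 270234 to 271628 and from 308114 to 309474 scored 0.324 and 0.412 and was in neither replicate. The 2 wide members were held by both replicates and the 2 narrow ones, 1395 bp and 1361 bp, by neither.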

How the data were processed

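ChIP-seq for H3K27me1 was analysed from 3 deposited lists, 1 for each ChIP replicate and 1 for the replicate set. Coordinates follow FlyBase release 5, per the file headers. Bowtie 0.12.7 was used per the submitters' processing notes, while the caller, its threshold and the merging of the replicates are not stated there. The score per cluster is the authors' value with no stated unit. Starts and ends are other values deposited by the authors. Input libraries entered no comparison, and the gene table at hand is of release 6, so no gene or sequence was assigned. Depth is unknown.

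Gaps are the bases between neighbouring clusters of 1 list. A replicate cluster counted as overlapping from 1 bp. The regions named are the highest score and the greatest smaller gap on each arm, the 10 highest scores, the widest and narrowest members, the 3 largest replicate differences in each direction and the 3 clusters on each side of both limits. The runs, the arm ends and the remaining chromosome 4 members were chosen after their values were seen. Width and gap classes were set with values known, and the members and lists were chosen with earlier results of these data known. The counting was tested on simulated data. Scripts ran in Python 3.11.15 with scipy 1.17.1 (exact intervals), pandas 2.3.3, numpy 2.4.6 and, for plots, matplotlib 3.10.9. Alternatives changed the gap, width, overlap, score and arm limits.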

Additional observations from a re-analysis of the deposited data

How the results depend on the processing

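No paired analysis was possible because no test was run and the Input libraries entered no comparison. The limits of the rule set the count. With gaps of at least 5000 bp, 1004 clusters were isolated, with 1274.5 on average in the replicate lists, and with 20000 bp 175 and 247.5. The isolated share of clusters then moved to 13.7% and 1.92% on X, and to 10.7% and 1.98% on the large autosomal arms (9.91% after leaving out the lowest 25% of scores). The mean share in a replicate, 39.7%, was 43.3% and 40.9% under these gap limits, 38.1% where 50% of the cluster or its midpoint had to be covered, 36.5% with 50% of both clusters, 41.7% on the large autosomal arms and 39.4% to 39.9% with 1 replicate left out. Leaving out the lowest 25% of scores before measuring gaps gave 51.9% in a replicate, 45.3% in both and 41.5% in neither. Clusters wider than 1300 bp, a setting chosen after seeing the data, gave 59.8%, 48.8% and 29.1%. With the 5000 bp gap, 47.1% were in neither. The median width was 1870 bp (5000 bp gap), 1525 bp (width under 5000 bp) and 2287 bp (lowest scores left out). The median score was 0.478 (width under 5000 bp), 0.526 (lowest scores left out), 0.474 (large autosomal arms) and 0.526 (wider than 1300 bp). The score difference turned to -0.0215 without the lowest scores and was 0.0381 at equal width. With the rule in each replicate list it was 0.0265 without replicate 1 and -0.00192 without replicate 2. The width difference was -478 bp (5000 bp gap), -432 bp (width under 5000 bp) and -766 bp (lowest scores left out), so isolated clusters were narrower in each setting run. The difference in the share in a replicate, -13.9 percentage points, was -10.8 (5000 bp gap), -12.3 (20000 bp gap), -14.1 to -13.7 with 1 replicate left out, -4.36 among clusters wider than 1300 bp and 0.0265 at equal width classes, all chosen after seeing the data. The last is a mean over classes that went both ways. The number isolated in a replicate list was 601 to 631 with 1 replicate left out. Of 81 alternative values 6 counts stayed within 1.5 times the main count and 37 other values within the spread or interval of the main value, and for the rest the cause was not tested. Depth is unknown, and the replicate lists hold no cluster of 1300 bp or less.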

Other observations

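Outside the 6 arms, clusters that met the same limits of width and gap were common on the unplaced sequence U. There 70 of 151 set clusters (46.4%) met them, with a median score of 1.46, and 15 were in both replicates and 41 in neither. On the 6 heterochromatic scaffolds 15 of 91 clusters met them, of which 1 was in both replicates and 13 in neither. The highest score among these was 3.05 on 3LHet. Clusters were sparser on U than on the arms, with 151 on 10.0 Mb, against 1537 under 10000 bp on the 21.1 Mb of 2R. U is unplaced sequence, so a gap there need not be a distance along a chromosome. Unique alignment on U and on the scaffolds was not examined.

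The first and last clusters of the arms were left out of the members because they have a neighbour on 1 side only. Those under 10000 bp count among the other clusters. On 3L the last cluster, from 24531640 to 24535946, lay 226987 bp from its neighbour, scored 0.643 and was in both replicates. On 2R the last cluster, from 21141256 to 21142528, lay 170479 bp from its neighbour, scored 0.302 and was in neither. On X the first cluster, from 114 to 1298, scored 1.25 at a width of 1185 bp and was in neither.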
